A study of Homo sapiens with 54 samples.

Results

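Total RNA of H4 cells transfected with miR-107-mut2, an altered form of the microRNA miR-107, was compared with total RNA of H4 cells transfected with a negative control RNA. The comparison held every array whose title gave either molecule and the total lysate fraction, which made 6 of the 54 arrays of the series, 3 for miR-107-mut2 and 3 for the control. The series asked which sequence features of miR-107 and its relatives set the RNAs it acts on. Each of its 9 small RNAs was transfected into H4 cells, and the cells were harvested 48 h later. RNA was then taken from the total lysate and from an anti-Argonaute immunoprecipitate (IP). The miR-107-mut2 lysates were also set against the lysates of miR-107-mut1 (another altered form) and of miR-107 itself (3 arrays each), and the miR-107-mut2 IP against the negative control IP (3 arrays each). The other lysates were those of miR-103, miR-16, miR-195, miR-320 and miR-15b*. miR-107-mut2, miR-107-mut1 and the control are synthetic molecules without a natural counterpart, the control being supplied by Ambion. H4 is 1 established human line that the labels describe as glioneuronal, so every group shares its genotype.

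A microRNA is loaded into an Argonaute protein and pairs with messenger RNAs mainly through its seed, bases 2 to 8, which lowers the stability and translation of those messages. miR-107 belongs to a group of related microRNAs with closely similar seeds, known for restraining the step from G1 to S phase of the cell cycle and, in brain, for acting on BACE1 and progranulin. A change at either end of such a molecule can alter which messages it pairs with.

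The mature sequences of the 4 natural members are shown because miR-107 is the parent of miR-107-mut2 and because the others share all or most of its seed. They come from RefSeq (GRCh38.p14), run from the 5′ to the 3′ end, and have the seed in capitals.
hsa-miR-107 (chr10:89592756-89592778, minus strand): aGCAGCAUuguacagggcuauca
hsa-miR-103a-3p (chr5:168560904-168560926, minus strand): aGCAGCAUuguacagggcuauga
hsa-miR-16-5p (chr3:160404754-160404775, plus strand): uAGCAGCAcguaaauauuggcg
hsa-miR-195-5p (chr17:7017667-7017687, minus strand): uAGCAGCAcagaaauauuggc
hsa-miR-107 and hsa-miR-103a-3p had the seed GCAGCAU, and hsa-miR-16-5p and hsa-miR-195-5p had AGCAGCA, so that the run GCAGCA lay within both. The bases in which miR-107-mut2 departs from its parent are not given in the sources used here, and no position is attached to any result below.

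Levels are the deposited log2 signals, and a difference of 1 on that scale is a factor of 2. The 6 arrays had means of 7.13 to 7.14 and replicates correlated at 0.991 to 0.995. Replicate 2 of the miR-103, miR-16 and miR-15b* lysates stood apart (median correlation with the other lysates 0.964 to 0.977, against 0.985 to 0.990 for the remaining 24). None of the 3 was a miR-107-mut2, miR-107-mut1, miR-107 or control array, but they entered the shared estimate of the spread. They also entered the values given below for the miR-103, miR-16 and miR-15b* lysates. That of miR-15b* entered the mean of the control, miR-320 and miR-15b* lysates as well. Of the marker genes on the array, 11 of 25 neuronal, 14 of 22 glial, 2 of 15 haematopoietic or endothelial and 10 of 15 fibroblast or epithelial ones passed the filter on dim genes, as did 11050 of all 18417 genes. The neuronal genes MAP2 and RBFOX3 and the glial genes GFAP, VIM and SOX9 passed it. So did the fibroblast or epithelial genes SNAI2, THY1, TWIST1, PDGFRB and KRT18 and the haematopoietic genes CD68 and SPI1. DCX, STMN2, S100B, AQP4, PTPRC and EPCAM did not. In miR-107-mut2 lysates SNAI2, VIM and THY1 averaged 13.02, 12.68 and 11.47, and MAP2 and GFAP 8.03 and 6.85. The filter averaged over lysate and IP arrays, so a marker below it may still have been present in the lysates, and the counts do not settle the lineage.

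Of 11050 genes tested, 1526 (13.8%) were called, at an adjusted p under 0.05 in limma with Benjamini-Hochberg adjustment over all of them. In miR-107-mut2 lysates 688 (6.23%) were higher and 838 (7.58%) lower than in control lysates. Of the called genes, 142 rose and 211 fell by more than 1 on the log2 scale. The 3 miR-107-mut2 arrays lay wholly above or below the 3 control arrays for 1518 of the called genes, which 47.0% of all genes tested did as well. At an unadjusted p under 0.05 the share was 28.0%. The median difference of all genes tested was 0.03. With the replicate number as a block, 2302 genes were called, 1099 higher (9.95%) and 1203 lower (10.9%). Without the 3 arrays that stood apart there were 3462, 1767 higher (16.0%) and 1695 lower (15.3%), so that fit held slightly more rises than falls. Against the mean of the control, miR-320 and miR-15b* lysates, 652 were higher (5.9%) and 896 lower (8.11%). That mean is called the mean of 3 controls below, although miR-320 and miR-15b* are microRNAs. Against the control they had 2.96% and 7.54% of genes called themselves.

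The largest rise was that of RAB27B, a Rab GTPase that docks secretory vesicles at the plasma membrane. RAB27B read 9.83, 10.25 and 10.02 in miR-107-mut2 lysates, against 6.31, 6.43 and 6.32 in control lysates. All arrays of the first group lay more than 3 log2 units above the second, and the difference was 3.67 ± 0.27 (SE), or 12.8-fold (limma adjusted p = 1.2e-08). CEMIP2, a cell-surface protein that breaks down hyaluronan, read 11.61, 11.92 and 11.79 in miR-107-mut2 lysates and 8.52, 8.22 and 8.54 in control lysates, a rise of 3.34 ± 0.31 or 10.2-fold (limma adjusted p = 1.7e-07).

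Several of the next largest rises were in genes of signalling and of inflammation. CXCL14, a chemokine, stood at 9.65, 9.97 and 9.90 in miR-107-mut2 lysates, against 7.50, 7.07 and 7.52 in control lysates, a rise of 2.47 ± 0.15. PTGS2, which encodes the inducible cyclooxygenase, was at 12.27, 12.07 and 11.74 in miR-107-mut2 lysates and at 10.26, 9.60 and 9.81 in control lysates, a rise of 2.14 ± 0.28. The receptors IL1R1 (interleukin 1; 2.21 ± 0.49) and C3AR1 (complement fragment C3a; 2.23 ± 0.20) were also higher. So were CHRNA1 (2.45 ± 0.21), the alpha subunit of the muscle acetylcholine receptor, and PCP4 (2.30 ± 0.24), a calmodulin-binding protein. ITGA6, a laminin-binding integrin subunit, rose by 2.43 ± 0.43 and PLAT, tissue plasminogen activator, by 2.33 ± 0.28. FBXO32, a ubiquitin ligase subunit of muscle atrophy, rose by 2.32 ± 0.22 and NRXN3, a neurexin of the presynaptic membrane, by 2.12 ± 0.25. Limma adjusted p-values of these 10 genes ran from 8.2e-10 for CXCL14 to 0.0028 for IL1R1.

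Chromatin and cell division genes led the falls. PHF19, a partner of the Polycomb repressive complex, read 7.72, 7.65 and 7.81 in miR-107-mut2 lysates, against 10.46, 10.53 and 10.39 in control lysates. Its 2 groups were nearly 3 log2 units apart, with a difference of -2.73 ± 0.22, or 6.64-fold (limma adjusted p = 3.4e-08). ASF1B, a histone chaperone used during replication, read 8.38, 9.02 and 8.83 in miR-107-mut2 lysates and 11.18, 11.43 and 11.42 in control lysates, which made -2.60 ± 0.22. FOXM1, a transcription factor that drives genes of G2 and mitosis, read 9.76, 10.17 and 10.36 in miR-107-mut2 lysates, against 12.09, 12.29 and 12.26 in control lysates (-2.12 ± 0.26). CCNB1, the mitotic cyclin B1, read 7.88, 7.99 and 8.45 in miR-107-mut2 lysates and 10.09, 10.21 and 10.15 in control lysates (-2.05 ± 0.16). PCLAF, which binds the replication clamp PCNA, was lower by -2.22 ± 0.33, and OIP5, which helps load the centromeric histone, by -2.05 ± 0.20. Adjusted p-values in limma were at most 5.3e-05 for these 6 genes.

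The other 6 of the 12 largest falls were surface and secreted proteins of neural tissue or, for CAPN6, a calpain. CBLN2, a secreted synapse organiser, read 7.85, 7.38 and 7.44 in miR-107-mut2 lysates, against 9.61, 10.84 and 9.79 in control lysates, a difference of -2.52 ± 0.23. CDH7 and CDH10, both cadherins, gave -2.29 ± 0.18 and -2.11 ± 0.32, the ephrin receptor EPHA4 gave -2.21 ± 0.25, the semaphorin SEMA3D gave -2.19 ± 0.35 and CAPN6 gave -2.10 ± 0.19. CBLN2, EPHA4, CDH10 and CAPN6 were also called lower, and FBXO32 higher, in each of the 7 other transfections, all of them set against the same 3 control arrays. For scale, of all genes tested 14.9% were called for miR-107 (6.51% higher), 17.2% for miR-103 (8.37% higher and 8.88% lower), 1879 genes for miR-16 (9.56% higher and 7.45% lower) and 1552 genes for miR-195 (6.82% higher and 7.22% lower). The share was 8.77% for miR-107-mut1 (3.33% higher), 2.96% for miR-320 (1.46% higher and 1.5% lower) and 7.54% for miR-15b* (3.5% higher and 4.04% lower). Against the mean of the control, miR-320 and miR-15b* lysates, CBLN2 was at -0.63, EPHA4 at -1.24, CAPN6 at -0.88 and FBXO32 at 1.39, and these stayed called. CDH10 was at -0.51 there and was not (adjusted p = 0.22). SEMA3D, CDH7 and the 6 genes of chromatin and division stayed called in that comparison.

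**Figure D1:**
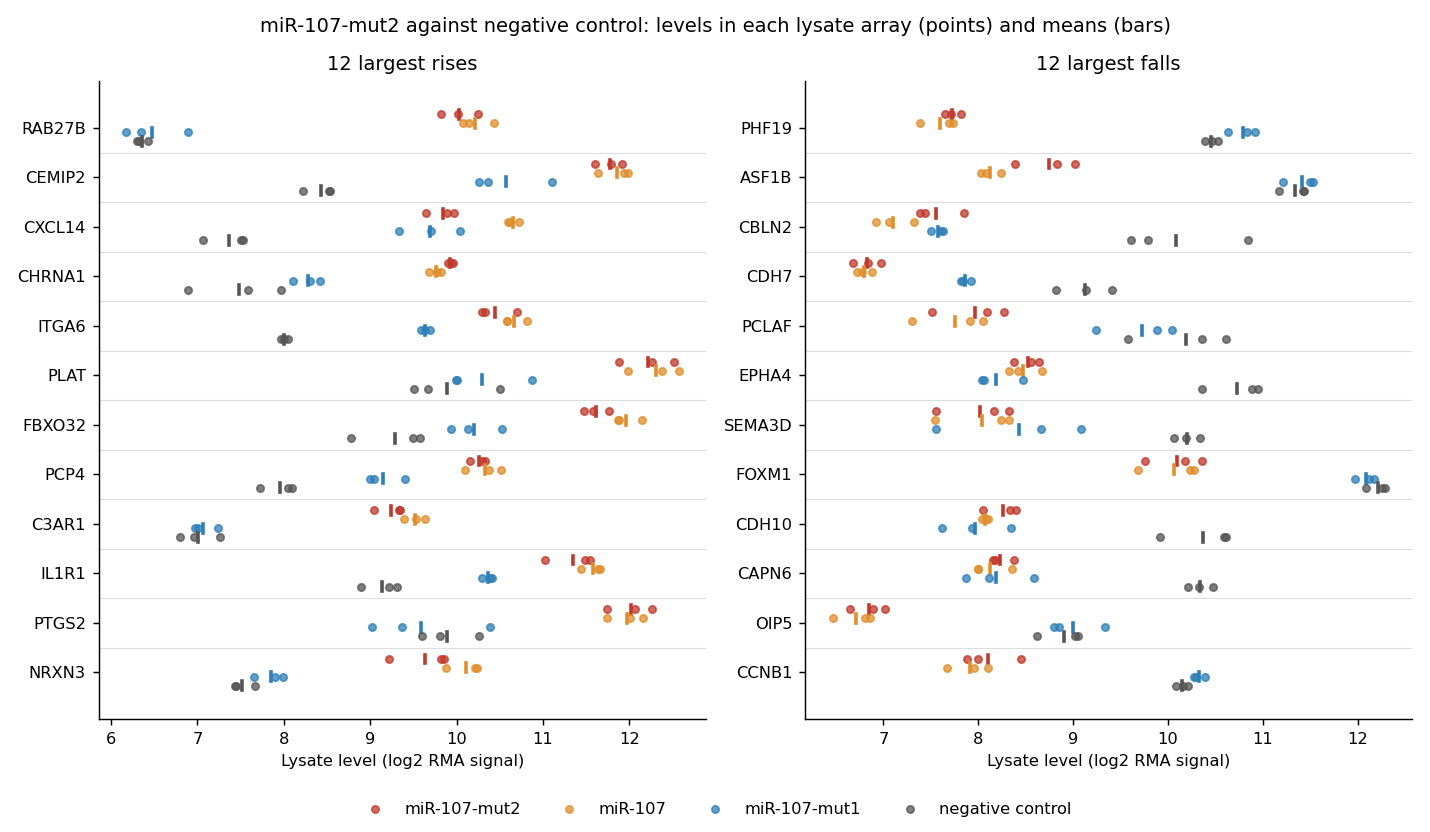
Levels (log2 RMA signal) of the 12 largest rises and the 12 largest falls in each lysate array (points) with group means (bars) for miR-107-mut2, miR-107, miR-107-mut1 and the negative control. Of these 24 genes, CXCL14 alone was called between miR-107-mut2 and miR-107. For PHF19, ASF1B, FOXM1, OIP5 and CCNB1 the miR-107-mut1 points lie beside the control.

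Genes of mitosis fell almost as a whole. Of 22 mitotic genes tested, 21 were called lower in miR-107-mut2 lysates and 0 higher, where 7.58% of all genes were lower, and their median difference was -1.55. In bulk RNA, fewer dividing cells and less of these messages per cell cannot be told apart. PLK1, the polo-like kinase of mitotic entry and spindle assembly, read 9.88, 10.22 and 10.43 in miR-107-mut2 lysates, against 12.17, 12.09 and 12.23 in control lysates (-1.99 ± 0.19, limma adjusted p = 2.1e-07). CCNB2, cyclin B2, read 8.35, 8.72 and 9.39 in miR-107-mut2 lysates and 10.48, 10.71 and 10.77 in control lysates (-1.84 ± 0.25). Kinesins KIF20A and KIF2C, the spindle checkpoint kinases BUB1 and BUB1B, the Aurora kinase AURKB, survivin (BIRC5) and topoisomerase TOP2A were lower, by 1.47 to 1.84 in size. BUB3, a checkpoint protein, had the smallest fall of the called members (-0.41 ± 0.13), and CDC25B, a phosphatase that activates cyclin-dependent kinases, was the 1 member not called (-0.26). The filter left out 12 members on the array. With no filter, 31 of 34 were called lower and 0 higher, where 5.01% of all genes were higher and 6.16% lower.

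DNA replication genes followed the same direction, with 27 of 32 called lower, 0 higher and a median of -1.29. The helicase subunits MCM2, MCM3, MCM4, MCM5 and MCM7 were all lower. MCM7 read 8.82, 8.75 and 8.82 in miR-107-mut2 lysates, against 10.73, 10.79 and 10.67 in control lysates (-1.93 ± 0.14, limma adjusted p = 1e-08). GINS1, GINS2 and GINS3, which complete that helicase, gave -1.91, -1.90 and -1.29, and CDC45 gave -1.44. Of the genes that supply nucleotides, thymidine kinase TK1 was at 9.14, 9.44 and 9.39 in miR-107-mut2 lysates and at 11.10, 11.35 and 11.27 in control lysates (-1.91 ± 0.20). TYMS, RRM1 and RRM2 gave -1.30, -1.28 and -1.17. PCNA, the clamp that holds polymerases to DNA, fell by 1.06, whereas ORC2, ORC5, POLD1, POLD2 and RPA3 were not called (-0.54 to -0.19). With no filter, 36 of 43 were lower and 0 higher.

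Replication-dependent histones, which are made during S phase, had 30 of 34 called lower, 0 higher and a median of -1.18. H3C8 read 7.67, 7.71 and 7.71 in miR-107-mut2 lysates, against 9.47, 9.78 and 9.42 in control lysates (-1.86 ± 0.19). H2BC7 read 10.59, 10.12 and 10.51 in miR-107-mut2 lysates and 11.79, 11.72 and 11.65 in control lysates (-1.31 ± 0.19). Members of every core class and of the linker class were lower, among them H2AC13 (-1.69), H3C12 (-1.94), H4C2 (-1.13) and H1-5 (-1.88). Histone genes are near copies of each other, so a probe set can read several of them, and the count of 30 is uncertain in that sense.

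The regions before the start sites of PLK1, CCNB2 and MCM7 are shown because many members of their lists fell, and that of CCN2 because it had the largest rise of the YAP and TEAD list. TTTGAA is known as the CHR element of genes expressed in G2 and mitosis, CCAAT as a binding site of NF-Y, TTTCCCGC as an E2F motif and CATTCC as the site of TEAD factors. Each run below holds the 250 bases before the annotated start in the direction of the gene (RefSeq, GRCh38.p14), with matches to the named motif on either strand in capitals.
PLK1 (chr16:23678639-23678888, plus strand, TTTGAA and CCAAT): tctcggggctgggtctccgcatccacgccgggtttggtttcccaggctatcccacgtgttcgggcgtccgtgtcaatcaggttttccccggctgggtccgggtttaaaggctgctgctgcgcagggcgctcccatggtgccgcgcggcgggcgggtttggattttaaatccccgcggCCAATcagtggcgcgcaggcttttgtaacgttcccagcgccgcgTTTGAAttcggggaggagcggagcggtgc
CCNB2 (chr15:59104896-59105145, plus strand, TTTGAA and CCAAT): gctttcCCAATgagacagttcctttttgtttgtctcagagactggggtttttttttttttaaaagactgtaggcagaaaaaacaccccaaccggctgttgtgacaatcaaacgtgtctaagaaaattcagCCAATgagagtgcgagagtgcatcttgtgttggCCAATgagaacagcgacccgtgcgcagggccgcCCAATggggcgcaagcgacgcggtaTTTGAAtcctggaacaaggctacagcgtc
MCM7 (chr7:100101398-100101647, minus strand, TTTCCCGC): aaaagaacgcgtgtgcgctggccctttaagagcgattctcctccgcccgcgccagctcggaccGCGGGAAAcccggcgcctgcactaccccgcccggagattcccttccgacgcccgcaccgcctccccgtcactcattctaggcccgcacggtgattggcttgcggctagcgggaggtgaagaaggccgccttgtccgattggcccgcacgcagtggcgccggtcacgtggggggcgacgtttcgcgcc
CCN2 (chr6:131951373-131951622, minus strand, CATTCC): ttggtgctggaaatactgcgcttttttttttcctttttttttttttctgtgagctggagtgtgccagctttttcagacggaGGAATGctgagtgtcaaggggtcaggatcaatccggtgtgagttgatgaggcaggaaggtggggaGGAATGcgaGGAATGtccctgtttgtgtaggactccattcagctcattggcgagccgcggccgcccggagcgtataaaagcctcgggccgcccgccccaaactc
In both PLK1 and CCNB2 the TTTGAA lay 29 to 24 bases before the start. CCAAT began 73 bases before the start of PLK1, and CCNB2 held it 4 times. In MCM7 the match was on the opposite strand, as were the 3 matches in CCN2.

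Over windows of 300 bases (250 before the start and 50 after it), TTTGAA was present in 9 of 17 mitotic genes with a promoter in the table (52.9%), against 8.6% of genes tested and 15.4% of all promoters. It was also in 9 of 30 histone promoters (30.0%) and in 1 of 28 replication promoters (3.6%). CCAAT was in 70.6% of the mitotic, 86.7% of the histone and 53.6% of the replication promoters, against 35.5% of genes tested and 35.7% of all. TTTCCCGC was in 9 of 28 replication promoters (32.1%), against 2.6% of genes tested and 1.7% of all, and in 0 mitotic or histone promoters. CATTCC was in 7 of 15 promoters of genes that respond to YAP and TEAD (46.7%), against 10.5% of genes tested and 3836 of the 27305 promoters in all. TGACTCA, the AP-1 motif, was in 1 of 19 promoters of early response genes (5.3%), against 3.1% of genes tested and 4.9% of all. Among the promoters of all genes called higher, 10.5% held CATTCC and 4.6% TGACTCA, against 9.3% and 1.9% for all genes called lower. TTTGAA was in 10.1% of the promoters of genes called higher and 14.1% of those called lower. CCAAT was in 36.8% and 44.8% of them, and TTTCCCGC in 1.7% and 5.2%. The search covered 10 motifs on both strands. Another E2F motif, GGCGGGAA, overlaps the reverse complement of TTTCCCGC. It was in 9 of 28 replication promoters (32.1%), against 5.1% of genes tested and 3.2% of all. The E2F form, TTTGGCGC, was in 2 of 28 replication promoters (7.1%), against 0.9% of genes tested and 0.7% of all. Of the variants of the CHR element, TTCGAA was in 1 of 17 mitotic promoters (5.9%), against 1.6% and 1.5%. ATTTGAA, which contains TTTGAA, was in 6 of 17 mitotic promoters (35.3%), against 2.1% of genes tested and 4.3% of all. The longer TTTGAATTT, which contains it too, was in 1 of 17 mitotic promoters (5.9%), against 0.3% and 0.5%. A match describes the letters of the window and is neither a tested site nor a cause.

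Genes of the G1 to S step moved in both directions, with 6 of 20 lower and 2 higher, where 7.58% and 6.23% of all genes were. CCNA2, the S phase cyclin A2, read 8.07, 8.84 and 8.78 in miR-107-mut2 lysates, against 9.95, 10.43 and 10.38 in control lysates (-1.69 ± 0.23, limma adjusted p = 2e-05). The kinases CDK6 (-1.15), CDK4 (-0.97) and CDK2 (-0.96) and the transcription factors E2F1 (-1.01) and E2F2 (-0.79) were the other 5 that fell. CCND1, cyclin D1, was higher at 10.40, 10.97 and 10.59 in miR-107-mut2 lysates and 9.40, 9.95 and 9.65 in control lysates (0.98 ± 0.24), as was E2F5 (0.76 ± 0.15), a repressor E2F. CCNE1 (-0.34), CDKN1A (-0.37) and CDKN1B (-0.07) did not pass the test, although CCNE1 did with the replicate block (adjusted p = 0.047).

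Among published targets of miR-103 and miR-107, 5 of 21 genes tested were lower and 1 higher, where 7.58% and 6.23% of all genes were. CDK6 read 9.08, 9.39 and 9.34 in miR-107-mut2 lysates, against 10.12, 10.71 and 10.42 in control lysates (-1.15 ± 0.16). BACE1, the beta-secretase that cleaves the amyloid precursor protein, read 10.58, 10.48 and 10.56 in miR-107-mut2 lysates and 11.07, 11.10 and 11.18 in control lysates (-0.58 ± 0.10, limma adjusted p = 3.8e-04). CACNA2D1, a calcium channel subunit, was lower by -1.85 ± 0.44, AGO1 by -1.08 ± 0.09 and the death-associated kinase DAPK1 by -0.39 ± 0.09. PDK4, a kinase that inhibits pyruvate dehydrogenase, was higher (1.00 ± 0.28) but not against the mean of 3 controls (adjusted p = 0.077). DICER1, which cuts microRNA precursors, was at -1.15 and was not called. With the replicate block, 9 targets were lower and 1 higher, where 10.9% of all genes were lower, and without the 3 arrays that stood apart 11 were lower and 2 higher (15.3% of all genes lower). GRN, which encodes progranulin, read 12.12, 11.91 and 11.82 in miR-107-mut2 lysates, against 12.40, 12.11 and 12.17 in control lysates, and those groups overlapped (-0.28 ± 0.18, adjusted p = 0.34).

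Published targets of the related miR-15, miR-16 and miR-195 gave 4 lower and 4 higher of 25, where 7.58% of all genes were lower and 6.23% higher. With the replicate block 6 were lower and 4 higher, where 10.9% and 9.95% of all genes were. WEE1, the kinase that holds back mitosis, read 8.37, 8.36 and 8.32 in miR-107-mut2 lysates and 9.51, 9.93 and 9.73 in control lysates (-1.37 ± 0.14). PHF19, CDK6 and FGFR1 (-0.51) were the others that fell, and JUN (1.55), MAP2K1 (1.02), CCND1 and SMAD7 (0.52) rose. BCL2 (0.16), the best known target of miR-15 and miR-16, was not called. Of 29 genes of microRNA processing and silencing, 6 were lower and 0 higher. Without the 3 arrays that stood apart 10 were lower and 1 higher, where 15.3% of all genes were lower and 16.0% higher. The 6 were the Argonautes AGO1, AGO2 (-0.62 ± 0.14) and AGO3 (-0.53 ± 0.17), the Dicer partner TARBP2 (-0.79), the export factor RAN (-0.45) and the helicase MOV10 (-0.41). AGO1 read 8.60, 8.52 and 8.56 in miR-107-mut2 lysates, against 9.56, 9.70 and 9.66 in control lysates, a narrow spread in both. RAN and MOV10 were not called against the mean of 3 controls (adjusted p = 0.10 and 0.089). Another probe set of RAN gave -0.21 and was not called (limma adjusted p = 0.23, with all probe sets fitted).

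Of 19 genes that respond to YAP and TEAD, the effectors of the Hippo pathway, 8 were called higher, 1 lower and 10 neither, with a median of 0.61, where 6.23% of all genes were higher. CCN2, a matricellular protein, read 10.45, 10.86 and 10.62 in miR-107-mut2 lysates, against 8.63, 8.41 and 8.60 in control lysates (2.10 ± 0.30, limma adjusted p = 3e-05). CCN1, of the same family, read 8.89, 9.45 and 8.86 in miR-107-mut2 lysates and 7.03, 7.02 and 7.22 in control lysates (1.98 ± 0.37). THBS1, thrombospondin, rose by 1.76 ± 0.16. TEAD1 itself (0.89), the coagulation receptor F3 (0.99), FOXF2 (0.95), FJX1 (0.90) and WWC1 (0.55) were also higher. FJX1 was not called against the mean of 3 controls (adjusted p = 0.054). The receptor kinase AXL fell (-0.52 ± 0.14), but was not called against the mean of 3 controls (adjusted p = 0.56).

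Early response genes and feedback inhibitors of the MAPK pathway had 11 of 26 higher, 1 lower and a median of 0.46. The shares of all genes were 6.23% higher and 7.58% lower. JUN, a subunit of AP-1, read 10.86, 10.39 and 10.68 in miR-107-mut2 lysates, against 9.53, 8.65 and 9.09 in control lysates (1.55 ± 0.22). It was at 0.70 against the mean of 3 controls and stayed called. The phosphatases DUSP4 (1.05), DUSP5 (1.51) and DUSP6 (0.98), the inhibitors SPRY1 (0.99) and SPRY4 (1.37), and PHLDA1 (1.12) were higher. So were IER3, ETV4, ETV5 and FOSL2 (0.61 to 0.96), of which ETV5 and FOSL2 were not called against the mean of 3 controls (adjusted p = 0.13 and 0.074). JUND was lower (-0.65), and FOS (0.13), EGR1 (-0.77) and MYC (0.44) were not called. Of 19 inflammatory mediators, 6 were higher and 0 lower. They were CXCL14, PTGS2, the chemokines CXCL8 (1.55 ± 0.47) and CCL2 (0.68 ± 0.15), the adhesion molecule VCAM1 (1.40 ± 0.34) and the cytokine LIF (0.91 ± 0.27). LIF was at 0.19 against the mean of 3 controls and not called there (adjusted p = 0.63). IL6 was at 2.02 without passing the test, and NFKBIA, the inhibitor of NF-kappaB, at -0.09.

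Extracellular matrix genes and matrix enzymes gave 10 of 41 higher and 0 lower, where 6.23% of all genes were higher and 7.58% lower. The proteases PLAT, PLAU (1.68 ± 0.19) and MMP14 (0.46), the crosslinking enzyme LOXL2 (1.17) and the basement membrane collagens COL4A1 (1.17) and COL4A2 (0.83) rose. COL6A3 (0.99), SPARC (0.48), THBS1 and CEMIP2 made up the rest, and COL1A1 (0.18) and FN1 (0.11) were not called. COL6A3 was not called against the mean of 3 controls either (adjusted p = 0.073). With the replicate block, 16 were higher and 1 lower, and 17 were higher without the 3 arrays that stood apart, where 9.95% and 16.0% of all genes were higher. Integrin subunits gave 4 of 14 higher and 0 lower, and 8 higher and 1 lower without those arrays. ITGA2, which pairs into a collagen receptor, read 12.05, 12.02 and 11.86 in miR-107-mut2 lysates, against 10.24, 9.75 and 9.60 in control lysates (2.11 ± 0.41), ITGA6 has been given above, and ITGB3 and ITGB5 both gave 0.69. Cell adhesion genes of neural tissue were split, with 4 higher and 5 lower of 17. NRXN3, CDH6 (1.64), CADM1 (0.60) and CDH11 (0.55) were higher, and CBLN2, CDH10, PCDH10 (-1.63), PCDH7 (-1.08) and NCAM1 (-0.60) lower.

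Wnt pathway genes gave 10 of 31 higher and 1 lower, where 6.23% of all genes were higher and 7.58% lower. The ligands WNT7B (1.79 ± 0.27) and WNT5A (0.93), the receptors FZD1, FZD3 and FZD5 (0.60 to 0.88), the effectors CTNNB1 (0.81) and LEF1 (0.64), and the inhibitors NKD1 (1.24), DKK3 (0.82) and SFRP1 (0.48) rose. RNF43, a ligase that removes Wnt receptors, fell (-0.72). WNT7B was at 0.76 against the mean of 3 controls and stayed called. TGF-beta and activin genes gave 7 of 32 higher and 0 lower, but 4 higher and 1 lower against the mean of 3 controls (5.9% and 8.11% of all genes), with the receptor TGFBR1 (1.45), the ligands INHBA (1.13), BMP4 (1.06) and BMP2 (0.68), and the inhibitors FST (1.53) and SMAD7 among them. INHBA, BMP2 and SMAD7 were not called against the mean of 3 controls (adjusted p = 0.13, 0.12 and 0.17). Of 16 Notch genes 3 were higher and 0 lower, led by the target HEY1 (1.63 ± 0.20), which read 9.58, 9.14 and 9.74 in miR-107-mut2 lysates and 8.03, 7.64 and 7.89 in control lysates, and 5 Notch genes were higher with the replicate block, 8 without the 3 arrays that stood apart and 2 against the mean of 3 controls. Hypoxia and glycolysis genes gave 9 of 32 higher and 1 lower, and 18 higher without those 3 arrays, where 16.0% of all genes were. Hexokinase HK2 (1.33), adrenomedullin (ADM, 1.48), the glucose transporter SLC2A3 (1.05) and aldolase C (ALDOC, 1.05) led them, whereas VEGFA (0.14), LDHA (0.23) and SLC2A1 (-0.09) were not called.

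Most other groups held few calls, and the p53 targets held more. For scale, 6.23% of all genes tested were higher and 7.58% lower. With the replicate block these shares were 9.95% and 10.9%, and without the 3 arrays that stood apart 16.0% and 15.3%. Of 53 cytosolic ribosomal proteins 7 were lower and 0 higher, each by less than 0.5. With the replicate block 11 were lower, without the 3 arrays that stood apart 19, and against the mean of 3 controls 13, where 10.9%, 15.3% and 8.11% of all genes were lower. Of 20 p53 targets 5 were higher, among them PMAIP1 (1.22) and PLK2 (1.13), and 2 lower, DDB2 (-0.96) and POLH (-0.78). MDM2 (-0.01) and CDKN1A were not called. Lysosomal genes gave 3 higher and 1 lower of 34, 4 and 3 with the replicate block, and 6 and 2 without the 3 arrays that stood apart. The lower one was acid sphingomyelinase, SMPD1, which read 9.84, 9.16 and 9.44 in miR-107-mut2 lysates, against 11.31, 10.96 and 11.07 in control lysates (-1.63 ± 0.21). Interferon response genes gave 3 of 29 higher (5 with the replicate block), oxidative phosphorylation 2 of 43 higher (5 higher and 2 lower with it), sterol synthesis 1 higher and 1 lower of 23 (1 and 4 with it) and NRF2 targets 1 of 18 lower (5 with it). Of 22 Alzheimer disease genes, BACE1 was the 1 called, and CDK5 (0.46) was called too with the replicate block.

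**Figure D2:**
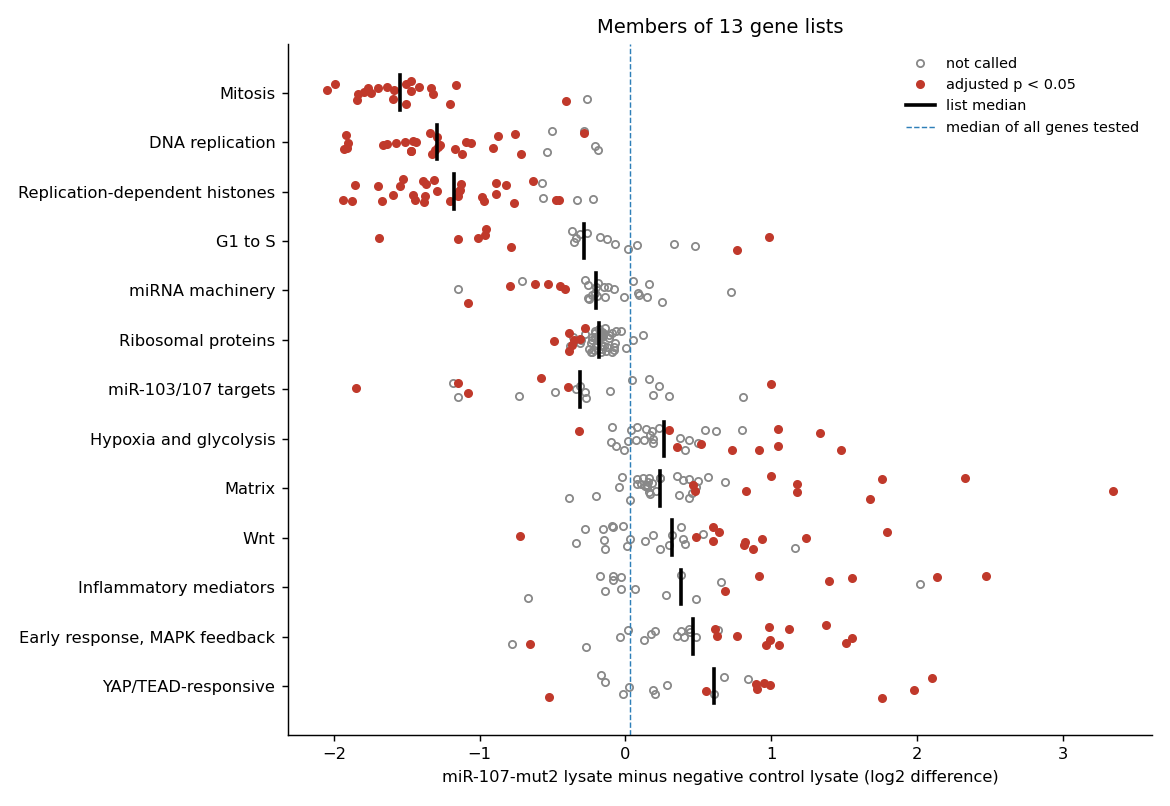
Differences between miR-107-mut2 and negative control lysates (log2, horizontal axis) for the tested members of gene lists, with called genes filled, others open, list medians as black bars and the median of all genes tested (0.03) as a dashed line. The medians of mitosis (-1.55), DNA replication (-1.29) and histones (-1.18) lie at the left, and those of the YAP and TEAD list (0.61) and the early response list (0.46) at the right.

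Against its parent miR-107, miR-107-mut2 gave 9 called genes of 11050 (0.0814%), 6 higher and 3 lower, and 4.21% at an unadjusted p under 0.05. With the replicate block 20 were called, 39 without the 3 arrays that stood apart, and 0 when any 1 of the 6 arrays was left out. The median size of the difference was 0.09 and the largest 0.97. The 95% interval of the difference lay within 1 log2 unit of 0 for 10679 genes (96.6%), and for 1495 of the 1526 genes called against the control. The intervals are not adjusted for the number of genes, so together they do not bound the differences of the whole set. Taken singly, each puts the difference of its gene within a factor of 2. It does not show that the molecules act alike below that size.

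CXCL14 was the 1 gene among the largest rises that also separated miR-107-mut2 from miR-107. It read 9.65, 9.97 and 9.90 in miR-107-mut2 lysates, against 10.72, 10.62 and 10.60 in miR-107 lysates (-0.81 ± 0.15, limma adjusted p = 0.033), so both stood above the control. NRP2, a semaphorin and VEGF co-receptor, read 9.06, 8.66 and 8.97 in miR-107-mut2 lysates and 9.62, 9.62 and 9.55 in miR-107 lysates (-0.70 ± 0.12, adjusted p = 0.031 in limma). TULP3, a protein of ciliary transport, was lower too, at 10.44, 10.37 and 10.36 in miR-107-mut2 lysates against 10.81, 10.94 and 10.82 in miR-107 lysates (-0.47 ± 0.08). TULP3 was also below the control (-0.64 ± 0.08), where miR-107 was at -0.17.

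The 6 genes higher than with miR-107 began with SRM, spermidine synthase. SRM read 11.90, 11.94 and 11.71 in miR-107-mut2 lysates, against 11.22, 11.07 and 10.85 in miR-107 lysates (0.80 ± 0.16, limma adjusted p = 0.047), and did not pass the test against the control (0.07). PIEZO1, a mechanically gated ion channel, averaged 9.97 ± 0.03 in miR-107-mut2 lysates and 9.18 ± 0.20 in miR-107 lysates (SD, n = 3 each), a difference of 0.80 ± 0.14, while it was lower than in the control by -0.71 ± 0.14. ZDHHC24 (0.67 ± 0.13) and ZDHHC4 (0.58 ± 0.10), of the palmitoyltransferase family, were not called against the control (0.07 and -0.18). PDAP1 (0.55 ± 0.09) and NRBP1 (0.52 ± 0.10, named after its value was seen) were below the control by -0.42 and -0.93. No replication or mitotic gene was called against miR-107. Their differences were above 0 for 28 of 32 replication genes and 19 of 22 mitotic genes, against 54.2% of all genes tested, with medians of 0.18 and 0.22. PLK1 and TK1 lay well above those medians, at 0.63 (95% interval 0.24 to 1.03) and 0.87 (0.44 to 1.29). These intervals are not adjusted for the number of genes.

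Against miR-107-mut1, the other altered form, 1408 genes (12.7%) were called, 738 higher (6.68%) and 670 lower (6.06%). Without replicate 3 of miR-107-mut1 there were 906 (429 higher and 477 lower), under cyclic loess 738 were higher and 806 lower, and without the 3 arrays that stood apart there were 2872. The balance of directions thus depended on the fit. This comparison uses no control array. RAB27B read 6.18, 6.90 and 6.34 in miR-107-mut1 lysates, so that miR-107-mut2 was higher by 3.56 ± 0.27. PTGS2 (2.43 ± 0.28), C3AR1 (2.17 ± 0.20), the serine protease PRSS23 (2.09 ± 0.22) and the lectin CLEC1A (1.99 ± 0.28) were next. CLEC1A read 9.50, 8.46 and 9.26 in miR-107-mut2 lysates and 7.48, 6.78 and 7.01 in miR-107-mut1 lysates, and was not called against the control (0.70, adjusted p = 0.11) except with the replicate block (adjusted p = 0.0043).

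PHF19, at 10.63, 10.83 and 10.92 in miR-107-mut1 lysates, was lower in miR-107-mut2 lysates by -3.06 ± 0.22 (limma adjusted p = 8.2e-09). ASF1B (-2.67 ± 0.22), the mitotic kinesin KIF18B (-2.54 ± 0.21), the spindle protein SPAG5 (-2.28 ± 0.20) and the homeobox factor DLX2 (-2.25 ± 0.23) followed. The cell cycle lists were lower here as well, with 20 of 22 mitotic, 27 of 32 replication and 31 of 34 histone genes, and medians of -1.71, -1.22 and -1.18. Of the 12 largest falls against the control, CBLN2 (-0.02), CAPN6 (0.04), CDH10 (0.29), EPHA4 (0.34) and SEMA3D (-0.42) were not called between the altered forms. Of the 12 largest rises, CXCL14 (0.14), ITGA6 (0.80) and IL1R1 (0.98) were not called. The YAP and TEAD list had 4 higher and 1 lower of 19, the early response list 7 higher and 0 lower of 26, and the integrins 0 higher and 1 lower of 14.

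**Figure D3:**
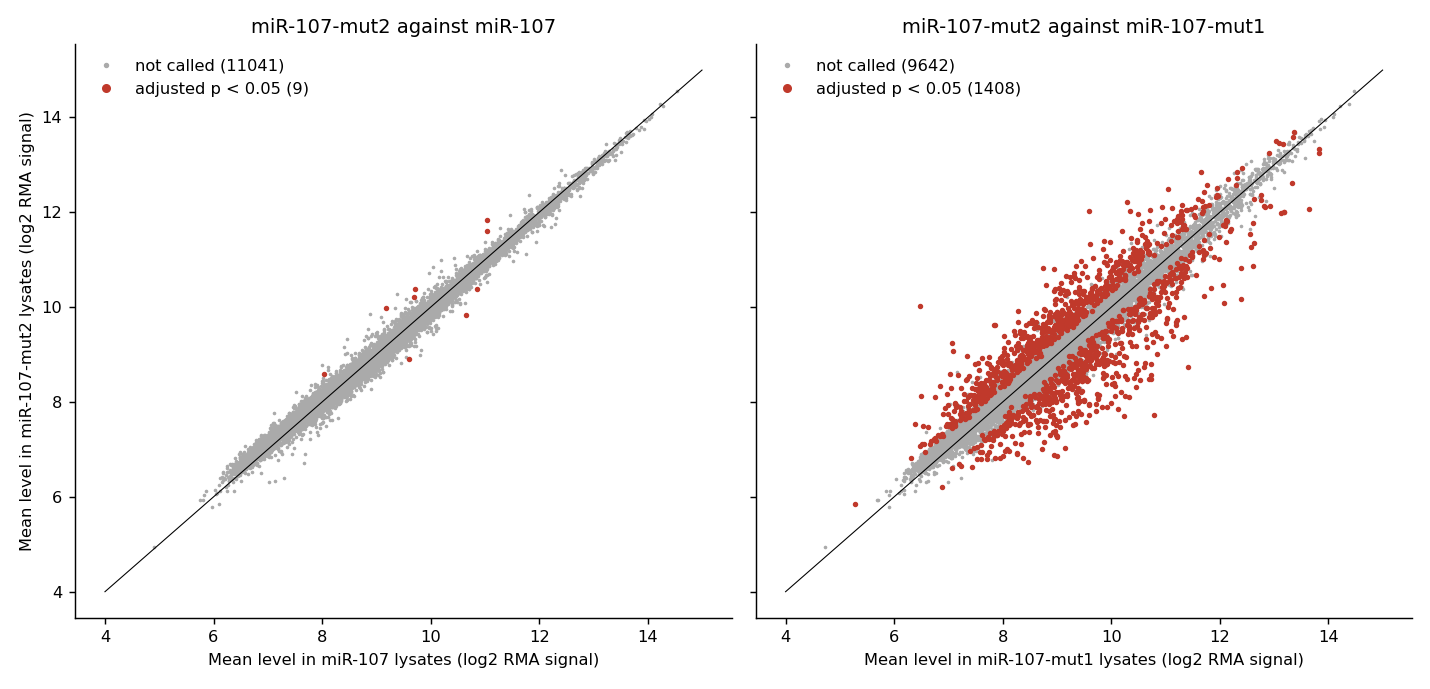
Mean lysate level (log2 RMA signal, n = 3 arrays a group) of each of the 11050 genes tested with miR-107-mut2 (vertical axis) against miR-107 (left, horizontal axis) and miR-107-mut1 (right, horizontal axis), with called genes in red and the line of equal levels in black. There are 9 called genes on the left, none farther than 0.97 from the line, and 1408 on the right.

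All 8 transfections were set against the same 3 control arrays, so their differences share the error of those arrays and are given side by side. Mitotic genes had a median of -1.55 with miR-107-mut2, -1.81 with miR-107, -1.89 with miR-103, -2.14 with miR-16 and -1.95 with miR-195. The molecules outside that set were nearer 0, with 0.17 for miR-107-mut1, -0.07 for miR-320 and -0.33 for miR-15b*. Replication genes gave -1.29 with miR-107-mut2, -1.48 with miR-107 and 0.01 with miR-107-mut1. Histones gave -1.18 with miR-107-mut2, -1.23 with miR-107 and 0.03 with miR-107-mut1. Of the mitotic genes, 21 were called lower with miR-107-mut2, 20 with miR-107 (8.35% of all genes lower) and 0 with miR-107-mut1 (5.44% of all genes lower). The lists that rose had their higher medians in the same transfections, with smaller gaps to the others. The YAP and TEAD list had medians of 0.61 with miR-107-mut2, 0.55 with miR-107, 0.47 with miR-103, 0.81 with miR-16 and 0.92 with miR-195. It had 0.32 with miR-107-mut1, 0.17 with miR-320 and 0.09 with miR-15b*. The early response list had 0.46 with miR-107-mut2, 0.66 with miR-107, 0.65 with miR-103, 0.54 with miR-16 and 0.37 with miR-195. Its medians were 0.19 with miR-107-mut1, 0.20 with miR-320 and 0.33 with miR-15b*.

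**Figure D4:**
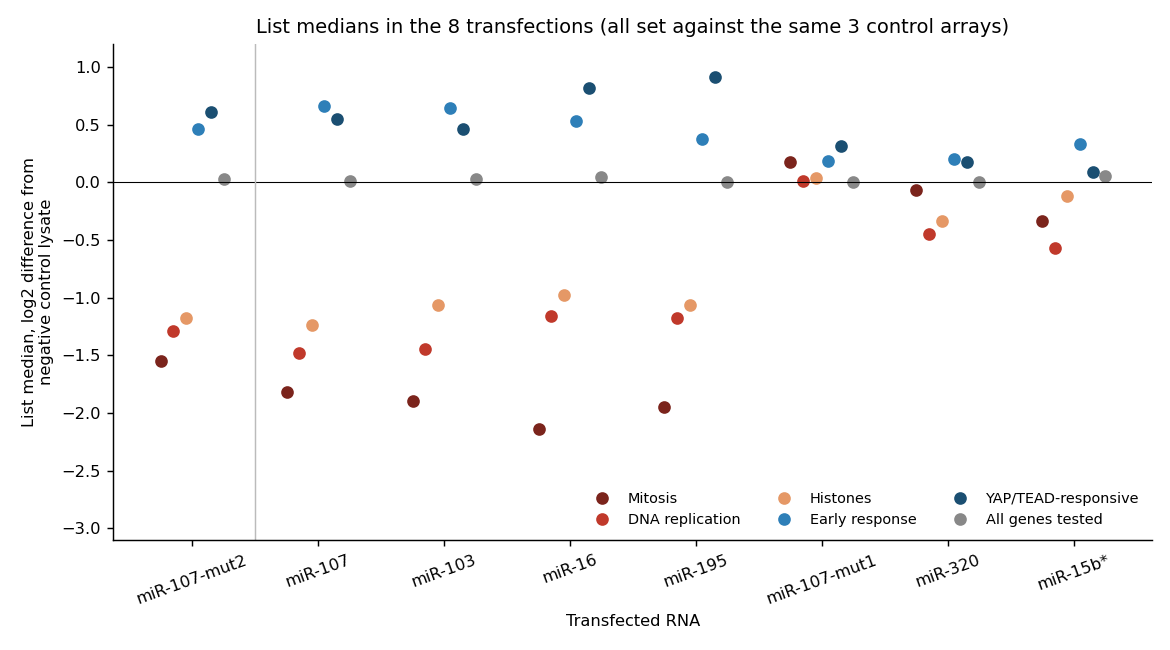
Median log2 difference from the negative control lysate (vertical axis) of 5 gene lists and of all genes tested in each transfection (horizontal axis), with miR-107-mut2 at the left; all points share the 3 control arrays. The medians of mitosis, DNA replication and histones lie near or below -1 for miR-107-mut2, miR-107, miR-103, miR-16 and miR-195 and between -0.57 and 0.17 for the other 3.

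The Argonaute IP of the same transfection was read for the genes named above. IP arrays had means of 3.61 to 3.65, far below those of the lysates, and each fraction was taken as normalised by itself and given its own fit. Of 11050 genes, 38 (0.344%) were called between the miR-107-mut2 IP and the control IP, 3 higher (0.0271%) and 35 lower (0.317%), and 6.57% had an unadjusted p under 0.05. With the replicate block 156 were called. Under cyclic loess the calls were 25 higher and 95 lower. Leaving out 1 array left 6 to 24 calls, the lowest without replicate 3 of the control IP.

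The 3 genes higher in the IP were GRN, PRSS23 and ITGA2. GRN read 10.21, 10.39 and 11.11 in the miR-107-mut2 IP, against 7.46, 7.58 and 7.85 in the control IP (2.94, limma adjusted p = 0.0055). In the miR-107 IP it read 11.78, 11.72 and 11.24, and in the miR-107-mut1 IP 7.38, 7.07 and 8.33. The miR-107-mut2 and miR-107 arrays thus stood above the miR-107-mut1 and control arrays, while the lysate level of GRN was not called, as given above. PRSS23 (1.60) and ITGA2 (1.51) were also higher in the lysate, by 2.03 and 2.11. PRSS23 read 4.74, 4.56 and 5.37 in the miR-107-mut2 IP and 3.58, 2.99 and 3.32 in the control IP.

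The genes lower in the IP included members of the cell cycle lists. H3C8 read 2.29, 2.81 and 3.51 in the miR-107-mut2 IP, against 4.80, 5.52 and 4.90 in the control IP (-2.21), and 9 of 34 histones, 1 of 22 mitotic genes (CDC25C, -2.33) and 1 of 32 replication genes (GINS1, -1.36) were called lower. Of the 12 largest lysate falls, SEMA3D was the 1 called in the IP (-1.51 ± 0.32, adjusted p = 0.034 in limma), and FOXM1 (-2.16 ± 0.50) and CBLN2 (-1.09 ± 0.26) were not. None of the 12 largest lysate rises was called in the IP, where all 12 were above 0. Several IP levels lay near or below the array medians, which were 3.17 to 3.26 in the IP arrays compared. RAB27B averaged 3.22 in the miR-107-mut2 IP and 2.54 in the control IP, and ITGA6 3.10 and 2.41. PLAT stood higher, at 5.93 and 4.54. The called falls GINS1 and SEMA3D averaged 2.41 and 2.61 in the miR-107-mut2 IP. Of the 1526 genes called in the lysate, 25 were called in the IP.

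**Figure D5:**
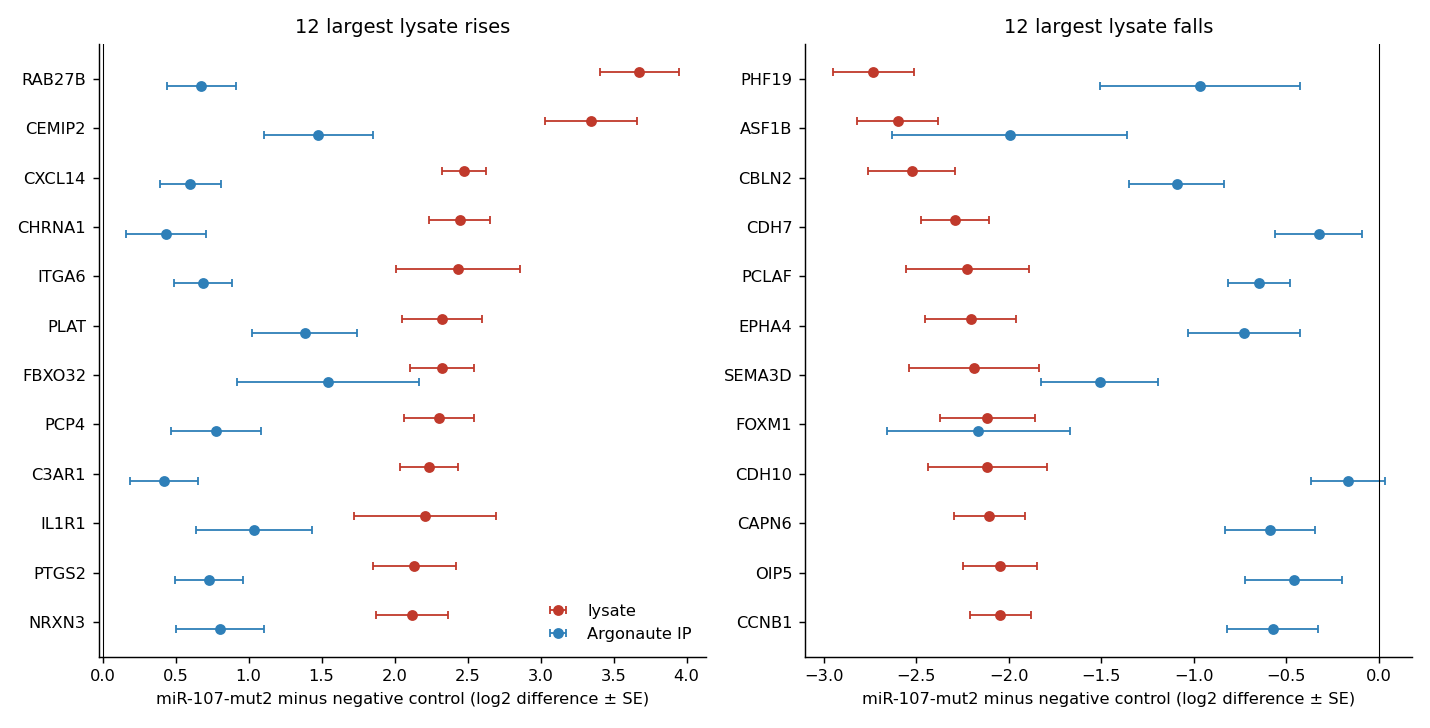
Differences between miR-107-mut2 and the negative control (log2 ± SE) in the lysate (red) and the Argonaute IP (blue) for the 12 largest lysate rises (left) and falls (right). All 24 genes lie on the same side of 0 in both fractions, and SEMA3D is the 1 gene here called in the IP. Several of the IP levels lay near or below the array medians.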

How the data were processed

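Gene-level RNA signals were measured on Affymetrix Human Gene 1.0 ST arrays. Per the submitters' processing notes, which name RMA and Affymetrix Expression Console 1.1, the authors deposited log2 signals, 1 for each probe set. The base of the log is not stated and was read as 2 from RMA's usual output. Signal over background was not analysed here. The array has 33297 probe sets. A single gene symbol was paired with 19460 of them, more than 1 symbol with 1754, and no symbol with 12083. The brightest probe set was kept for each of 18417 genes, and 11050 were tested after removal of the dimmest 40%, those whose average across the 54 arrays was under 5.26. limma 3.58.1 (R 4.3.3) was fitted to all 27 lysate arrays as 9 groups, and to the IP arrays likewise, with Benjamini-Hochberg adjustment over all genes tested. The labels describe biological replicates, and p-values measure the spread between these samples.

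Same-numbered replicates share a code in the labels. Their deviations from the group means correlated at 0.37 to 0.71 between miR-107-mut2 and control lysates, against -0.61 to 0.34 for unlike numbers. The numbers were therefore read as pairing the samples, but p-values and SEs come from the fit without that block unless the block is named. The fit with that block was an alternative. Named genes were the 12 largest rises and falls called with replicates not overlapping, the 5 largest each way against miR-107-mut1 and miR-107, and members of 36 lists. The molecules compared and the lists were chosen with earlier results of these data known. The fits were tested on simulated data. Other alternatives were cyclic loess, other filters, array weights, moderated variance with a trend, other controls, all probe sets and leaving out arrays. Sequences and gene names came from RefSeq tables, with 19429 probe sets matched by gene ID.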

Additional observations from a re-analysis of the deposited data

Results flagged for a closer look

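MRGBP, MRPL32 and NPTN were drawn out because all arrays moved one way in the lysate and the opposite way in the IP, each with a call in both. The difference between the fractions was not tested. MRGBP, a subunit of a histone acetyltransferase complex, read 10.39, 10.35 and 10.24 in miR-107-mut2 lysates, against 9.88, 9.76 and 9.76 in control lysates (0.53, limma adjusted p = 2.9e-04). In the IP it read 5.82, 5.54 and 6.21 with miR-107-mut2 and 8.94, 8.67 and 9.48 with the control (-3.17, limma adjusted p = 2.4e-04). MRPL32, a mitochondrial ribosomal protein, was at 0.45 in the lysate and -1.30 in the IP. NPTN, the adhesion protein neuroplastin, was at 0.71 in the lysate and -2.29 in the IP. The lysate rise was also called in all 7 other transfections for MRGBP (0.41 to 0.62) and for NPTN (0.35 to 0.86), all against the same 3 control arrays, and in none of them for MRPL32 (-0.06 to 0.28).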

How the results depend on the processing

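None of the 42 differences chosen by size changed direction in the alternative fits with 1 probe set per gene. The directions of the other named genes were not compared between fits. For miR-107-mut2 against control lysates (1526 genes called), there were 2302 calls with the replicate block, 2969 with only the 6 arrays compared, 5162 with array quality weights, whose estimate did not fully converge, and 3462 without the 3 arrays that stood apart, a setting chosen after seeing the data. Rises outnumbered falls in the last 3 (1485 and 1484, 2764 and 2398, 1767 and 1695). Leaving out 1 array gave 1032 to 1254. Of the list genes (226 called), 340 were called with only the 6 arrays, 488 with weights, 365 without the 3 arrays and 176 to 210 with 1 array left out. Against miR-107-mut1 (1408), there were 2872 without the 3 arrays and 906 to 1203 with 1 array left out. Against miR-107 (9), there were 20 with the block, 39 without the 3 arrays and 0 to 0 with 1 array left out. In the IP (38), there were 156 with the block, 120 under cyclic loess and 6 to 24 with 1 array left out. The replicate block left the call of all 42 differences chosen by size as it was. Of 72 list counts (higher and lower for 36 lists), it moved 22 by over 1.5 times, leaving out the 3 arrays moved 37, array weights 53, only the 6 arrays 33, the mean of 3 controls 15, leaving out 1 array 6 to 16 and cyclic loess 1. The mitosis, DNA replication and histone counts were within 1.5 times with the block, without the 3 arrays, with the mean of 3 controls and under loess, but the 60% filter, which tests fewer genes, left 13 mitotic and 14 replication genes lower. The causes were not tested.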
